A study of Homo sapiens with 9 samples.

Results

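The genes described here encode core proteins of the spliceosome and the serine- and arginine-rich (SR) splicing factors. They were taken by symbol as every gene of the deposited counts table whose name begins with SNRP, with SF3A or SF3B and a digit, or with LSM, PRPF or SRSF and a digit. The rule used no measured value and found 58 of 11350 genes, of which 12 were SNRP, 13 LSM, 9 SF3, 13 PRPF and 11 SRSF genes. The limit on low counts behind the table is not given in the sources used here, and a splicing gene outside the table is not analysed here. One SNRP entry, SNRPGP15, is a pseudogene of SNRPG. The SNRP and LSM genes, 25 in all, mostly encode small ring-forming proteins and are called the small core below. They were set beside the other 33 genes.

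RNA-seq was performed in the human colorectal carcinoma line HCT116 without treatment, in 3 lines with 3 libraries each. HUWE1 is a large ubiquitin ligase whose catalytic residue is a cysteine. HUWE1-P cells were parental. In HUWE1-CS cells the endogenous catalytic cysteine was exchanged for serine, and in HUWE1-WT cells the same exchange was made with a template that restored cysteine. Both edited lines therefore share the guides, the inserted blasticidin resistance gene behind a P2A sequence, the puromycin and blasticidin selection and growth from single cells, none of which parental cells went through. HUWE1-WT cells are the control that carries these steps. Whether the 3 libraries of a line come from 1 clone or from several is not given in the sources used here, and p-values measure only the spread between those libraries. Of 7 epithelial marker genes, EPCAM, KRT8, KRT18, CDH1 and CDX2 were in the table and CDX1 and VIL1 were not listed. None of 3 blood and 2 endothelial markers was listed, and of 3 fibroblast markers COL1A1 was, at between 8.71 and 25.6 CPM (counts scaled to a common library size). HUWE1 itself had 543 ± 19.8 CPM (SD, n = 3) in HUWE1-P, 469 ± 25.8 in HUWE1-WT and 336 ± 11.7 in HUWE1-CS cells. The HUWE1-CS libraries, from 323 to 345 CPM, lay below all controls, and the cause was not tested. This tests no label, because counts per gene do not read the exchanged codon. Each library held from 1610984 to 2060349 counts, and 3 counts, taken as the floor, made 1.45 to 1.86 CPM.

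Introns are removed by small nuclear ribonucleoproteins, each an RNA dressed in proteins. Sm proteins (SNRPB, SNRPD1 to SNRPD3, SNRPE, SNRPF, SNRPG) close into a ring around the U1, U2, U4 and U5 RNAs, and a related ring of LSM2 to LSM8 sits on the U6 RNA. With LSM1 in place of LSM8 the same LSm proteins act in the cytoplasm in mRNA decay. The SF3A and SF3B complexes hold the U2 particle on the branch point, many PRPF proteins belong to the U4/U6.U5 tri-snRNP or to the Prp19 complex, and SR proteins bind exons and recruit the machinery. SR genes carry ultraconserved exons through which they tune their own mRNA levels. The question asked of the data was whether these transcripts differed in cells with the catalytic mutant, and whether the small core differed from the larger factors.

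Few of the 58 genes were called, and their differences were modest. Against HUWE1-P cells, the small core genes LSM3, LSM4 and SNRPD2 and the SR genes SRSF5 and SRSF8 were higher in HUWE1-CS cells, and SRSF1 and PRPF19 were lower. A gene was called at an adjusted p of at most 0.01 in edgeR's quasi-likelihood test over all genes. By that limit 7 of 58 members were called (12.1%), against 17.0% of all genes tested. Against HUWE1-WT cells 6 of 58 were called (10.3%), against 15.5% of all genes. LSM3, LSM4, SNRPD2 and SRSF8 were again higher and SRSF1 again lower, and SRSF4 was lower. Both comparisons use the same HUWE1-CS libraries. DESeq2 called 4 and 3 members at the same limit, LSM4, SNRPD2 and SRSF8 in both and SRSF1 against HUWE1-P, and it called 9.59% and 8.79% of all genes. The largest difference of the set was that of SRSF8, at 1.55-fold in each comparison. The median size of the log2 fold change, regardless of sign, was 0.12 over members and 0.22 over all genes against HUWE1-P. These shares and sizes are not matched for level. Of the 58 members 33 lay in the quintile of genes with the highest mean CPM, where 5 of these 33 and 33.8% of all genes were called against HUWE1-P, and 4 of 33 and 30.2% against HUWE1-WT.

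**Figure D1:**
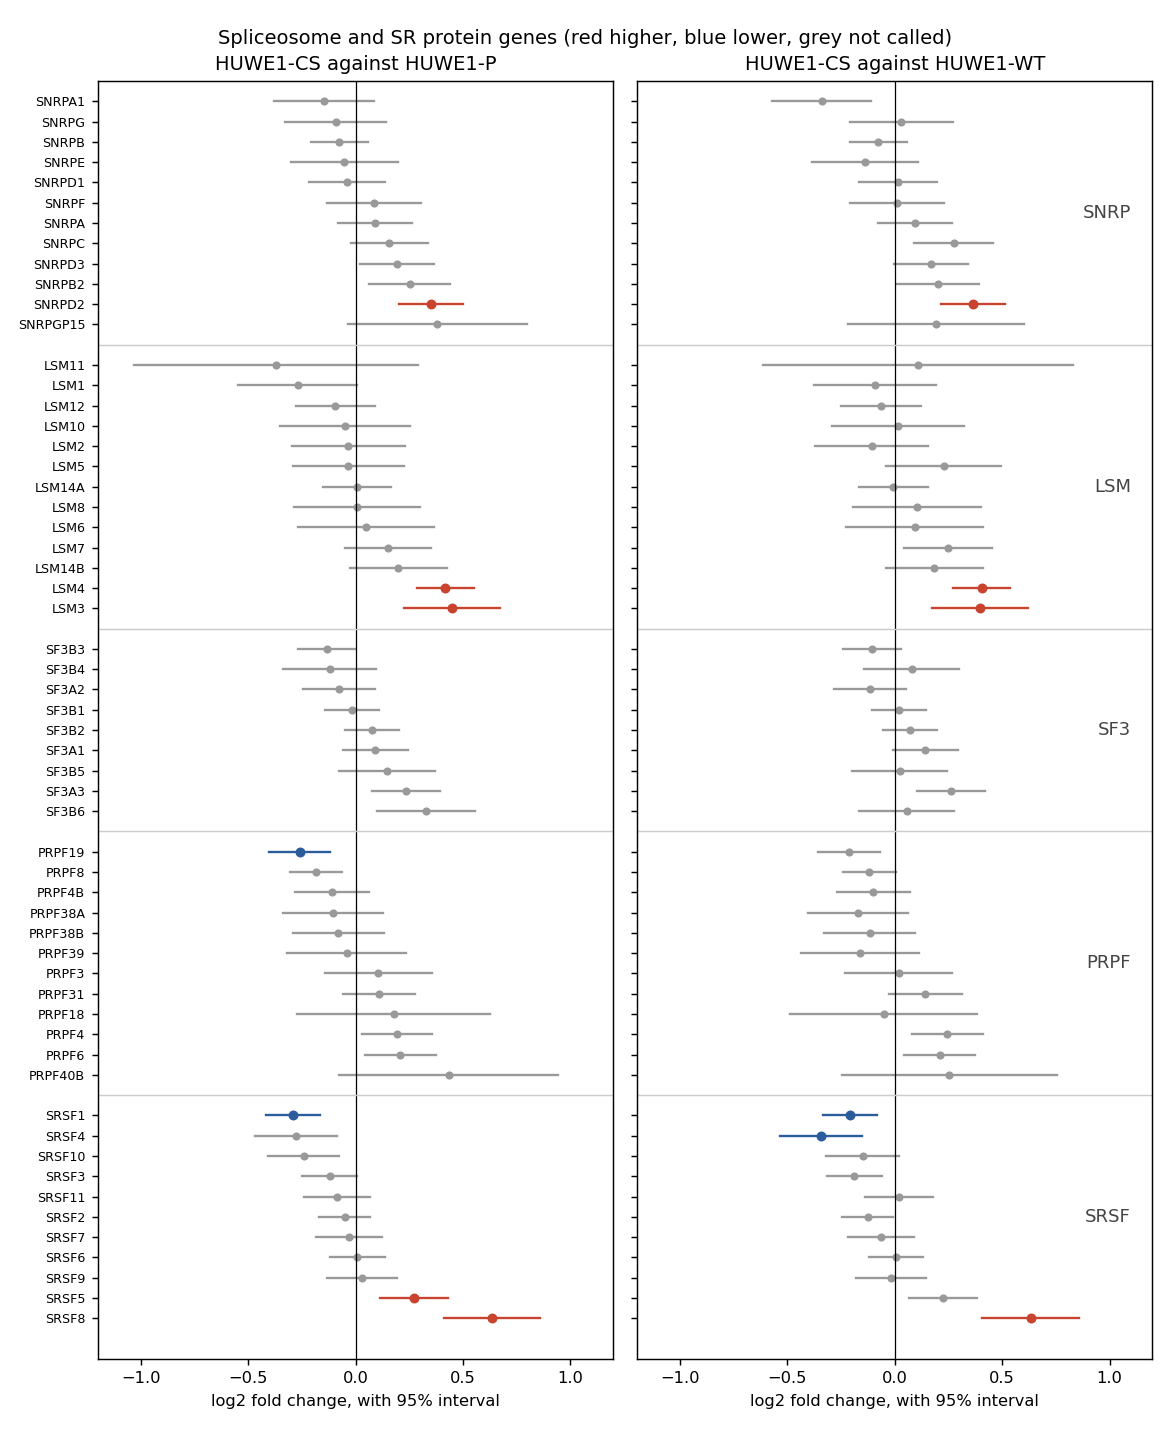
Log2 fold change (x axis) of 57 of the 58 genes, ordered within its family, in HUWE1-CS against HUWE1-P cells (left) and against HUWE1-WT cells (right). Points are estimates from edgeR, lines are 95% intervals, and red and blue mark called genes. Most intervals cross 0, and no SF3 gene was called in either comparison. In all, 7 genes were called on the left and 6 on the right, against 17.0% and 15.5% of all genes.

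In all, 5 members were called in the same direction in both comparisons, and the 130 bases before their transcription starts are shown because these are the genes the comparisons turn on. They are RefSeq sequences on GRCh38.p14, written 5′ to 3′ on the strand of the gene, with matches to the motifs searched below in capitals.
LSM3, chr3:14178687-14178816, plus strand: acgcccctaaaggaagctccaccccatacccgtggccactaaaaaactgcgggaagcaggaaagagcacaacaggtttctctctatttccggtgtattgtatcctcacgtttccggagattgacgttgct
LSM4, chr19:18323077-18323206, minus strand: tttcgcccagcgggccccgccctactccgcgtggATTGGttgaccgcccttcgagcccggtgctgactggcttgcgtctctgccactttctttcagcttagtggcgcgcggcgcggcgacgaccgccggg
SNRPD2, chr19:45692317-45692446, minus strand: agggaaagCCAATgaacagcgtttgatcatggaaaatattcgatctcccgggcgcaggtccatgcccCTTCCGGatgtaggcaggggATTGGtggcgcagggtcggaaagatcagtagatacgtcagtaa
SRSF8, chr11:95066747-95066876, plus strand: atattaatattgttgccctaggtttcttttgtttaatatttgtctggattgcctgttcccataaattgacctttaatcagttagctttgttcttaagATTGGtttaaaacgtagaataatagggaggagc
SRSF1, chr17:58007247-58007376, minus strand: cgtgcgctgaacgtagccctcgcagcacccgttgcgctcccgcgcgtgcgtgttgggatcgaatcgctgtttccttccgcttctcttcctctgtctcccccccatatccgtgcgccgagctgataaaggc
These are CCAAT letters (ATTGG on the other strand) in LSM4, SNRPD2 and SRSF8 and an ETS-type match (CTTCCGG, which is CCGGAAG on the other strand) in SNRPD2, from base -63 to base -57 counted back from the start. LSM3 and SRSF1 held no match in the window. The SRSF8 promoter had the lowest GC content of these 5, at 32.3%, against 69.2% in LSM4. Promoters were in the table for 48 members, and both strands of the 250 bases before each start were searched. CCGGAAG was found in 19 of 48 members (39.6%), in 17.3% of the 9041 genes of the counts table with a promoter, and in 8.82% of all 27305 promoters. CCAAT was in 39.6% of members and 35.5% of those 9041 genes. The E-box CACGTG was in 1 of 48 members (2.08%) and in 9.35% of the 9041, and TATAAA in 8.33% and 4.58%. CCGGAAG was in 8 of 20 small core promoters (40.0%) and in 11 of 28 of the others (39.3%). These are letter matches, described without a test.

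Of the 7 Sm ring genes only SNRPD2 was called. SNRPD2, which pairs with SNRPD1 in the ring, lies at chr19:46190718-46195827 on GRCh37. It had 239, 235 and 248 CPM in the HUWE1-P libraries, 210, 271 and 234 in HUWE1-WT and 271, 322 and 328 in HUWE1-CS. Every HUWE1-CS library was above every control, but the lowest of them by less than 1 CPM. The log2 fold change was 0.35 ± 0.07 (SE) against HUWE1-P (adjusted p = 0.000108) and 0.36 ± 0.07 against HUWE1-WT (adjusted p = 7.41e-05). The other 6 genes of the ring were not called and lay between -0.09 (SNRPG) and 0.19 (SNRPD3) against HUWE1-P and between -0.14 (SNRPE) and 0.17 (SNRPD3) against HUWE1-WT. SNRPB, which gives the B and B′ subunits, had 426, 388 and 388 CPM in HUWE1-P, 388, 430 and 382 in HUWE1-WT and 361, 394 and 384 in HUWE1-CS cells. Its libraries overlapped throughout, and its log2 fold change against HUWE1-P was -0.08 with a 95% interval from -0.21 to 0.06. SNRPD1, the partner of SNRPD2, had 146, 143 and 138 CPM in HUWE1-P and 116, 143 and 156 in HUWE1-CS cells, and was at -0.04 with an interval from -0.22 to 0.14. Whether SNRPD1 and SNRPD2 differ was not tested. With the length trend described below removed, they were at 0.02 and 0.14 against HUWE1-P, neither called.

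Levels of different genes are comparable only per transcript length, so CPM were divided by the length in kilobases of the longest annotated transcript. On that scale SNRPB had 370 CPM per kb in HUWE1-P cells and SNRPD2 had 299, followed by SNRPF at 103, SNRPG at 65.2, SNRPD3 at 39.9, SNRPE at 38.8 and SNRPD1 at 29.4. SNRPD3 and SNRPE did not differ beyond their spread. These ratios depend on which transcript is taken as the longest, since the SNRPD1 model is 4858 bases and that of SNRPD2 805. Among SNRP genes outside the ring, SNRPA and SNRPC of the U1 particle and SNRPA1 and SNRPB2 of the U2 particle were not called. Their log2 fold changes were 0.09, 0.16, -0.15 and 0.25 against HUWE1-P and 0.09, 0.27, -0.34 and 0.20 against HUWE1-WT. Of the 50-base windows of SNRPA1, 59.8% occur elsewhere in the genome, and a read that lies within such a window cannot be assigned to this gene alone. The same holds for 37.0% of the pseudogene SNRPGP15, at 0.38 and not called, and for 22.5% of SNRPG.

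LSM genes held 2 of the 3 small core calls. LSM4, a subunit of both LSm rings at chr19:18417046-18433922, had 312, 297 and 295 CPM in HUWE1-P, 300, 317 and 294 in HUWE1-WT and 418, 408 and 381 in HUWE1-CS cells. All HUWE1-CS libraries were above all controls by a wide margin. The log2 fold change was 0.42 ± 0.07 against HUWE1-P (adjusted p = 2.91e-07) and 0.40 ± 0.07 against HUWE1-WT (adjusted p = 7.78e-07). LSM3, also in both rings and at chr3:14220317-14242622, had 70.1, 78.6 and 59.7 CPM in HUWE1-P, 62.6, 75.8 and 76.2 in HUWE1-WT and 92.6, 87.9 and 102 in HUWE1-CS cells. The HUWE1-CS libraries were above all controls, and the HUWE1-P and HUWE1-WT libraries, spread widely, overlapped each other. LSM3 was at 0.45 ± 0.11 against HUWE1-P (adjusted p = 0.00122) and 0.40 ± 0.11 against HUWE1-WT (adjusted p = 0.00491). Its call against HUWE1-P was lost when replicate 3 of HUWE1-P (adjusted p = 0.0426) or replicate 3 of HUWE1-CS (adjusted p = 0.0136) was left out. Against HUWE1-WT it was lost without HUWE1-WT replicate 1 (0.0577), HUWE1-CS replicate 1 (0.0134) or HUWE1-CS replicate 3 (0.0382), all as adjusted p.

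The other ring subunits were not called. LSM2, LSM5, LSM6, LSM7 and LSM8 were at -0.03, -0.03, 0.05, 0.15 and 0.01 against HUWE1-P. LSM8, the subunit found in the nuclear ring only, had 42.2, 46.6 and 38.5 CPM in HUWE1-P and 40.9, 49.9 and 36.6 in HUWE1-CS cells, which overlap. LSM1, its cytoplasmic counterpart, had 48.4, 57.2 and 51.6 CPM in HUWE1-P, 52.1, 46.9 and 40.1 in HUWE1-WT and 45.7, 45.9 and 38.9 in HUWE1-CS cells. The difference was -0.27 on the log2 scale against HUWE1-P (95% interval -0.55 to 0.01) and -0.09 against HUWE1-WT. Neither the nuclear nor the cytoplasmic member of the pair was called. Per transcript length LSM4 (177 CPM per kb) and LSM7 (168) were the most abundant LSm genes of the rings in HUWE1-P cells, with overlapping spreads, and LSM8 the least (3.43), its longest transcript being 12384 bases. LSM10 and LSM11, which replace D-type Sm proteins in the U7 particle of histone mRNA processing, were at -0.05 and -0.37. LSM11 had the lowest level of all members, a mean of 7.92 CPM over the 9 libraries, and its interval reached -1.03. LSM14A, LSM14B and LSM12, which are not ring subunits, were at 0.01, 0.20 and -0.10, and 72.1% of the 50-base windows of LSM12 occur elsewhere.

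**Figure D2:**
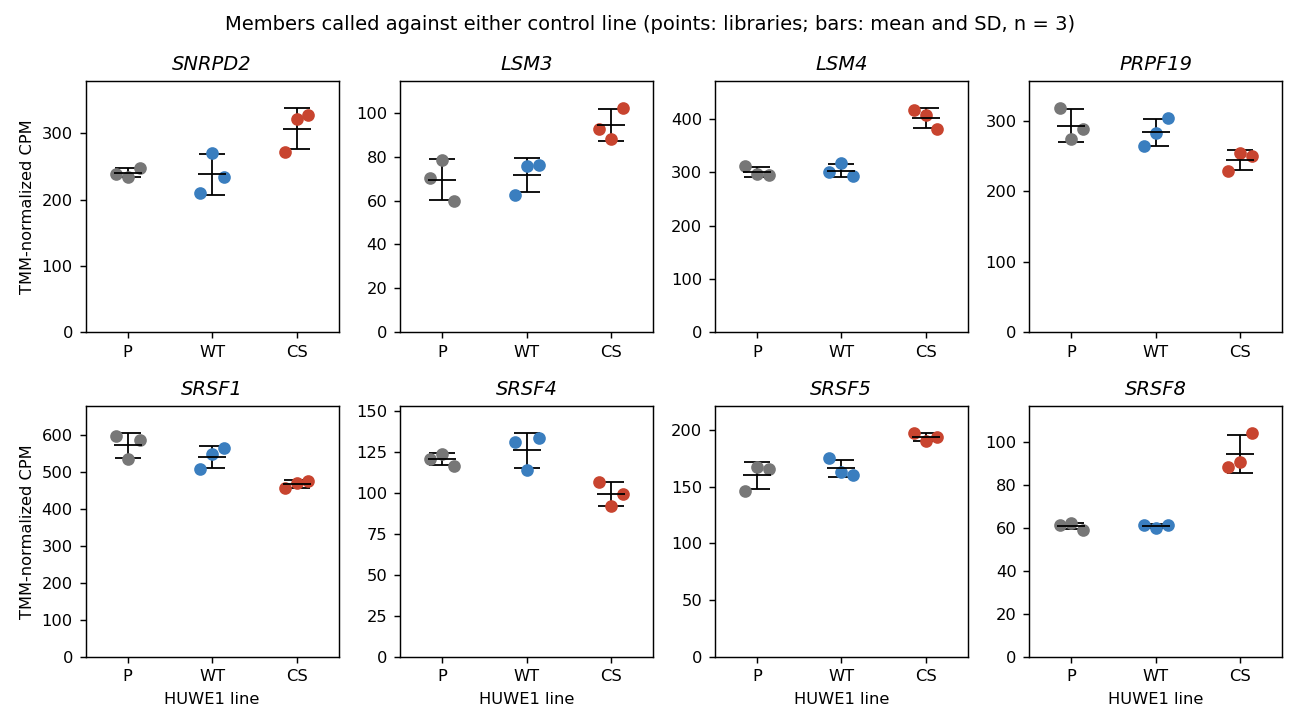
TMM-normalized CPM (y axis, from 0) of the 8 members called in either comparison, by HUWE1 line (x axis). Points are libraries and bars mean and SD (n = 3). HUWE1-CS libraries lie above all controls in SNRPD2, LSM3, LSM4, SRSF5 and SRSF8, and below all of them in PRPF19, SRSF1 and SRSF4. In SNRPD2 the lowest HUWE1-CS library is level with the highest HUWE1-WT library.

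None of 9 SF3 genes was called in either comparison, against 17.0% and 15.5% of all genes. None had HUWE1-CS libraries beyond all 6 controls, against 26.3% of all genes. So few genes do not set this family apart either. SF3B1, the branch-site protein often mutated in myelodysplastic syndromes, was the most abundant by CPM at 504, 498 and 494 CPM in HUWE1-P, 474, 481 and 503 in HUWE1-WT and 477, 476 and 526 in HUWE1-CS cells. The 3 groups overlapped fully, and the 95% interval of its log2 fold change reached from -0.14 to 0.11 against HUWE1-P. SF3A3 came nearest to a call. It had 162, 187 and 199 CPM in HUWE1-P, 177, 178 and 187 in HUWE1-WT and 193, 239 and 216 in HUWE1-CS cells, and its lowest HUWE1-CS library lay below the highest HUWE1-P library. The log2 fold change was 0.23 ± 0.08 (adjusted p = 0.0197) against HUWE1-P and 0.26 ± 0.08 (adjusted p = 0.0103) against HUWE1-WT. SF3B6, which touches the branch-point adenosine, was at 0.33 against HUWE1-P (adjusted p = 0.0252) but at 0.06 against HUWE1-WT cells.

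Of 13 PRPF genes only PRPF19 was called against HUWE1-P (7.69%) and none against HUWE1-WT, against 17.0% and 15.5% of all genes. PRPF19, the ubiquitin ligase of the Prp19 complex at chr11:60658019-60674057, had 318, 274 and 288 CPM in HUWE1-P, 265, 282 and 304 in HUWE1-WT and 229, 255 and 250 in HUWE1-CS cells. All HUWE1-CS libraries were below all controls. It fell by 0.26 ± 0.07 on the log2 scale against HUWE1-P (adjusted p = 0.00353), while the value against HUWE1-WT was -0.21 ± 0.07 (adjusted p = 0.0214). Whether these values differ was not tested. The call against HUWE1-P was lost without HUWE1-P replicate 1 (adjusted p = 0.0648), HUWE1-P replicate 3 (0.0102) or HUWE1-CS replicate 1 (0.0444). PRPF8, the centre of the U5 particle and the member with the most counts, had 724, 731 and 771 CPM in HUWE1-P, 748, 661 and 720 in HUWE1-WT and 678, 593 and 689 in HUWE1-CS cells. Its HUWE1-CS libraries were below all HUWE1-P libraries and overlapped those of HUWE1-WT cells, and its log2 fold change of -0.18 against HUWE1-P was not called (adjusted p = 0.0166). PRPF6 had HUWE1-CS libraries above all 6 controls without being called, at 0.21 against HUWE1-P. The remaining tri-snRNP genes PRPF3, PRPF4 and PRPF31 were at 0.11, 0.19 and 0.11.

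In each comparison 3 of 11 SRSF genes were called (27.3%), in both directions, against 17.0% and 15.5% of all genes and 33.8% and 30.2% of those in the quintile of highest mean CPM. So few genes do not set the family apart. SRSF8, an SR protein closely related to SRSF2 and at chr11:94800083-94804388, had 61.4, 62.3 and 59.3 CPM in HUWE1-P, 61.4, 60.0 and 61.6 in HUWE1-WT and 88.4, 90.7 and 105 in HUWE1-CS cells. The 6 controls were close together, and all HUWE1-CS libraries were far above them. The log2 fold change was 0.63 ± 0.11 in each comparison (adjusted p = 3.46e-06 and 4.91e-06). SRSF1, the founding SR protein at chr17:56078280-56084707, had 596, 533 and 585 CPM in HUWE1-P, 508, 548 and 562 in HUWE1-WT and 456, 469 and 476 in HUWE1-CS cells. All HUWE1-CS libraries were below all controls. SRSF1 was at -0.29 ± 0.06 against HUWE1-P (adjusted p = 0.000145) and at -0.21 ± 0.06 against HUWE1-WT (adjusted p = 0.00916). The second call stood close to the limit and was lost in 15 of 21 other settings, among them the omission of 8 of the 9 libraries in turn, with adjusted p between 0.01 and 0.0739 in those 8.

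SRSF4 and SRSF5 were each called in 1 comparison. SRSF5, at chr14:70193617-70238722, had 146, 167 and 166 CPM in HUWE1-P, 175, 163 and 160 in HUWE1-WT and 198, 190 and 194 in HUWE1-CS cells, so that its HUWE1-CS libraries were above all controls. It was at 0.27 ± 0.08 against HUWE1-P (adjusted p = 0.00586) and 0.22 ± 0.08 against HUWE1-WT (adjusted p = 0.0292). SRSF4, at chr1:29474255-29508412, had 121, 124 and 117 CPM in HUWE1-P, 131, 114 and 134 in HUWE1-WT and 107, 91.9 and 99.3 in HUWE1-CS cells, all HUWE1-CS libraries being below all controls. It was at -0.28 ± 0.10 against HUWE1-P (adjusted p = 0.0231) and -0.34 ± 0.10 against HUWE1-WT (adjusted p = 0.00432). For SRSF5 the call was lost without HUWE1-P replicate 1 or 3 or HUWE1-CS replicate 1 or 3 (adjusted p between 0.0118 and 0.0654), and for SRSF4 without HUWE1-WT replicate 1 or 3 or HUWE1-CS replicate 2 or 3 (between 0.0154 and 0.0418).

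SRSF2 and SRSF3, abundant SR genes that were not called, also had their HUWE1-CS libraries below all controls. SRSF2 had 588, 593 and 586 CPM in HUWE1-P, 632, 632 and 598 in HUWE1-WT and 564, 567 and 574 in HUWE1-CS cells. SRSF3, the smallest SR protein, had 469, 465 and 470 in HUWE1-P, 467, 536 and 467 in HUWE1-WT and 420, 426 and 445 in HUWE1-CS cells. The log2 fold changes of SRSF2 and SRSF3 were -0.05 and -0.12 against HUWE1-P and -0.13 and -0.19 against HUWE1-WT (SRSF3 adjusted p = 0.0229). Counting called genes too, 6 of 11 SRSF genes had HUWE1-CS libraries beyond all 6 controls, 2 above and 4 below. So did 26.3% of all genes tested, a share not matched for level. Among all 58 members there were 12 such genes (20.7%). SRSF6, SRSF7, SRSF9 and SRSF11 overlapped the controls, and 89.8% of the 50-base windows of SRSF10, at -0.24 against HUWE1-P and not called, occur elsewhere. Of the 8 members called in either comparison SRSF8 had the highest such share, at 6.34%. Counts per gene do not separate isoforms, so levels of transcripts with the ultraconserved exons were not measured.

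For members that were not called, the 95% intervals of the main fit give a range for each gene. Against HUWE1-P 45 of 51 such genes had a 95% interval within 0.5 log2 units of 0 on both sides (1.41-fold), and 50 of 51 within 1 (2-fold), the exception being LSM11. Against HUWE1-WT the counts were 48 and 52 of 52. Within the narrower limit of 0.25 there were 13 and 15. These intervals reflect only the spread between libraries in that fit and are not adjusted for the number of genes. With the length trend described below removed, SNRPB was at -0.24 against HUWE1-P, outside its interval from -0.21 to 0.06.

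At an adjusted p of at most 0.01 the small core and the larger factors were called about equally often. The groups were not matched for level. Median mean CPM was 78.4 in the small core and 167 in the larger factors. Their median SE against HUWE1-P was 0.112 and 0.083, so small core genes were measured less precisely. In each comparison 3 of 25 small core genes were called (12%), all higher in HUWE1-CS cells. Of the 33 SF3, PRPF and SRSF genes 4 (12.1%) were called against HUWE1-P, 2 higher and 2 lower, and 3 (9.09%) against HUWE1-WT, 1 higher and 2 lower. Of all genes, 8.46% were called higher and 8.58% lower against HUWE1-P, and 7.42% and 8.08% against HUWE1-WT. The median log2 fold change of the small core was 0.01 against HUWE1-P and 0.09 against HUWE1-WT, that of the other 33 genes -0.02 and 0.01, and that of all genes -0.01 and -0.00. Against HUWE1-P 14 of 25 small core genes and 16 of 33 others had a positive value, and against HUWE1-WT 18 of 25 and 17 of 33 had one. Looser measures gave less equal shares. In edgeR's test against HUWE1-P, 5 of 25 (20%) and 13 of 33 (39.4%) had an unadjusted p under 0.05. Against HUWE1-WT 7 of 25 (28%) and 11 of 33 (33.3%) did. HUWE1-CS libraries lay beyond all controls in 3 of 25 (12%) and 9 of 33 (27.3%). Whether the groups differ in these shares was not tested.

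With the called genes included, the small core summed higher relative to the larger factors in HUWE1-CS cells. The ratio of summed CPM of the 25 genes to that of the 33 was 0.366, 0.371 and 0.354 in HUWE1-P, 0.354, 0.376 and 0.356 in HUWE1-WT and 0.390, 0.416 and 0.402 in HUWE1-CS libraries, the last all above the 6 controls. The sums include the called genes LSM3, LSM4, SNRPD2 and SRSF1, so they are no evidence beside those calls. Without LSM3, LSM4 and SNRPD2 the ratio was 0.285, 0.289 and 0.276 in HUWE1-P and 0.277, 0.289 and 0.277 in HUWE1-WT libraries. It was then 0.284, 0.305 and 0.295 in HUWE1-CS libraries, which overlapped the controls. By family, the LSM sum was 1151 ± 20.3 CPM in HUWE1-P, 1128 ± 33.2 in HUWE1-WT and 1277 ± 7.54 in HUWE1-CS cells. Without LSM3 and LSM4 it was 781 ± 19.5, 753 ± 17.7 and 781 ± 12.6, and the lines overlapped. The SRSF sum was 3209 ± 47.3, 3227 ± 113 and 3054 ± 18.1, lower in every HUWE1-CS library than in every control. Without SRSF1, SRSF4, SRSF5 and SRSF8 it was 2296 ± 24.6, 2335 ± 111 and 2199 ± 12.3, again lower in every HUWE1-CS library. SNRP, SF3 and PRPF sums overlapped between lines, and all 58 genes together took 1.04%, 1.04% and 1.03% of the counts. In bulk RNA such a share does not tell fewer cells with a transcript from less of it per cell.

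**Figure D3:**
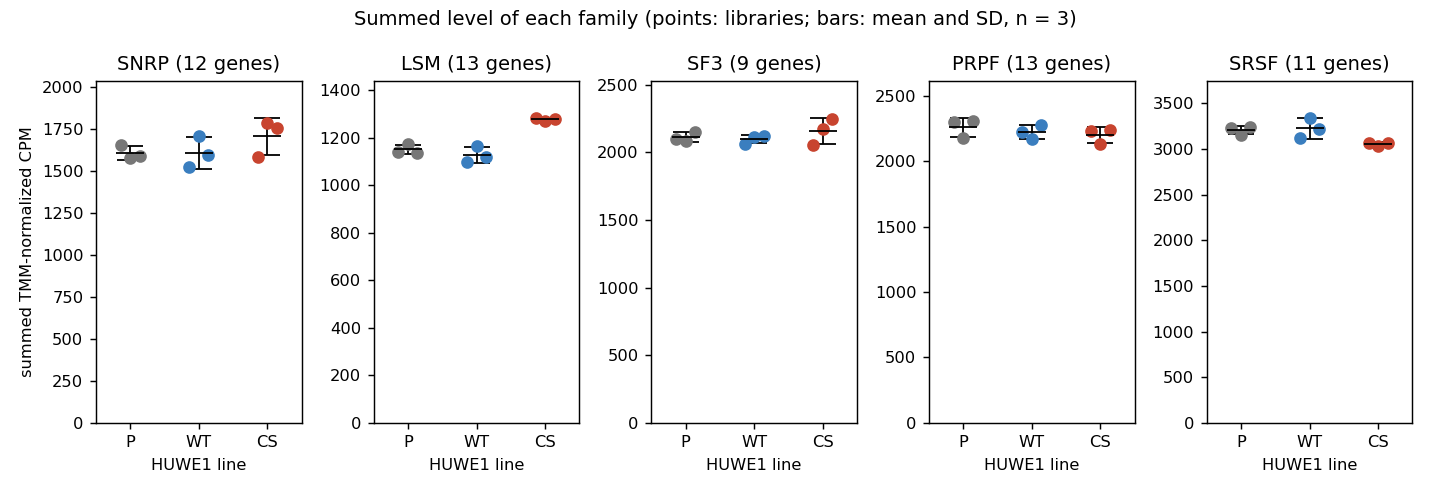
Summed TMM-normalized CPM (y axis, from 0) of each family by HUWE1 line (x axis). Points are libraries and bars mean and SD (n = 3). The LSM sum is higher in the HUWE1-CS libraries than in all 6 controls, the SRSF sum is lower, and the other 3 families overlap. Without LSM3 and LSM4 (not drawn) the LSM sum overlaps between lines too.

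Transcript length moved with the fold change over all genes, and small core genes have short transcripts. The median longest transcript was 1560 bases in the small core, 3532 in the other members and 3598 over the 10827 genes with a length. From the shortest to the longest quintile of all genes the median log2 fold change against HUWE1-P was 0.13, 0.04, -0.01, -0.05 and -0.12. Spearman's rho was -0.26 across genes, which are not independent and share the same libraries. For HUWE1-CS against HUWE1-WT rho was -0.20, and between the controls, HUWE1-WT against HUWE1-P, it was -0.15. The trend was thus not confined to HUWE1-CS cells. In the shortest quintile, up to 2013 bases, the 14 small core genes had a median of 0.03 against HUWE1-P, below the 0.13 of all genes there. SNRPD2 (805 bases) and LSM4 (1704 bases) lie in that quintile, while LSM3 (3359 bases) and SRSF8 (4306 bases) do not. When a trend with length was removed from each library, SNRPD2 was at 0.14 against HUWE1-P and no longer called (adjusted p = 0.121), whereas LSM4 (0.32), LSM3 (0.45) and SRSF8 (0.67) remained called. LSM1 (-0.45, adjusted p = 0.00677) and SNRPB (-0.24, adjusted p = 0.000438) were then called lower, with SRSF4 (-0.33). In that setting 10 of 58 members were called, 5 higher and 5 lower, against 17.6% of all genes. What gives this trend was not tested.

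HUWE1-WT and HUWE1-P cells, the edited control and the parental line, did not differ detectably in these genes. None of 58 members was called by edgeR, against 0.0617% of all genes, and 1 member had an unadjusted p under 0.05 (SF3B6, at 0.27). DESeq2 called 0 as well, with 0 at an unadjusted p under 0.05. The median log2 fold change over members was 0.00, and 52 of 58 had a 95% interval within 0.5 of 0. SRSF8 was at 0.00 with an interval from -0.24 to 0.24, LSM4 at 0.01 (-0.12 to 0.15), SNRPD2 at -0.01 (-0.16 to 0.14), LSM3 at 0.05 (-0.18 to 0.29) and SRSF1 at -0.08 (-0.21 to 0.04). LSM11 again had the widest interval, down to -1.15.

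Other splicing genes were read from 10 lists of general knowledge, 148 genes of which were in the table. Against HUWE1-P cells 20 of 148 were called (13.5%), 10 higher and 10 lower, against 17.0% of all genes. Against HUWE1-WT cells 16 were called (10.8%), 11 higher and 5 lower, against 15.5% of all genes. Values below are against HUWE1-P unless stated. The heterogeneous nuclear ribonucleoproteins (hnRNPs) coat nascent RNA and often oppose SR proteins at splice sites. They had the highest share called of the 10 lists against HUWE1-P, with 6 of 24 (25%), 3 higher and 3 lower. Against HUWE1-WT 6 of 24 were called, 4 higher and 2 lower, and the U4/U6 and U5 list had the same share (3 of 12). In the quintile of highest mean CPM, where the hnRNP genes named below lie, 33.8% and 30.2% of all genes were called. HNRNPD, an AU-rich element binder, had 623, 610 and 652 CPM in HUWE1-P, 585, 601 and 638 in HUWE1-WT and 397, 459 and 398 in HUWE1-CS cells. Its HUWE1-CS libraries were far below all controls, at -0.59 ± 0.06 against HUWE1-P. Its relative HNRNPDL was at -0.40 ± 0.07, and HNRNPAB, of the same subfamily, was higher at 0.52 ± 0.06. HNRNPH1, a binder of G-rich RNA, was at 0.24 ± 0.06.

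Among genes that work with the small core, none of 16 snRNP assembly genes (the SMN complex and its partners) was called in either comparison, and none of 7 U1-associated genes. Of all genes 17.0% were called against HUWE1-P and 15.5% against HUWE1-WT, and counts in lists this small do not set them apart. DCP1B, a partner of the decapping enzyme that acts with the LSM1 ring, was higher at 0.77 ± 0.22 and at 0.80 ± 0.23 against HUWE1-WT, the only one of 8 called in its list in either comparison. It had 15.5, 15.2 and 10.6 CPM in HUWE1-P, 12.2, 12.5 and 15.1 in HUWE1-WT and 23.7, 21.0 and 25 in HUWE1-CS cells, above all controls. In the U2 list the helicase DHX15, which takes spliceosomes apart, was lower at -0.26 ± 0.07, the only one of 14 called. Against HUWE1-WT it was at -0.21 ± 0.07 (adjusted p = 0.0177), and none of the 14 was called. SNRNP200, the helicase that unwinds U4 from U6, was higher at 0.20 ± 0.06 and at 0.24 ± 0.06 against HUWE1-WT. Of 30 Prp19-related and activated spliceosome genes 5 were called against HUWE1-P (16.7%), BUD31 (0.53) and SYF2 (0.53) higher and HSPA8 (-0.18) and SYNCRIP (-0.20) lower among them. Against HUWE1-WT 2 of 30 were called (6.67%), both higher, SYF2 (0.71) among them, while BUD31 (0.34), HSPA8 (-0.15) and SYNCRIP (-0.14) were not. In the minor spliceosome PDCD7 was higher at 0.49 ± 0.13 and at 0.44 ± 0.13 against HUWE1-WT.

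Of 19 SR kinases and SR-related genes 3 were called against HUWE1-P (15.8%), all lower, and 1 against HUWE1-WT (5.26%). The shares of all genes were 17.0% and 15.5%. The gene called in both was TNPO1, an import receptor that is itself neither an SR protein nor a kinase. It was at -0.32 ± 0.07 against HUWE1-P and -0.30 ± 0.07 against HUWE1-WT. SRRM2, a large scaffold of nuclear speckles, was at -0.41 ± 0.07 against HUWE1-P but at -0.14 ± 0.07 against HUWE1-WT (adjusted p = 0.115), and its HUWE1-P and HUWE1-WT libraries ranged from 600 to 863 CPM. In the exon junction list RBM8A, the core subunit Y14, was higher at 0.45 ± 0.09 and DDX39A, an mRNA export helicase, was lower at -0.61 ± 0.08. DDX39A had 220, 210 and 220 CPM in HUWE1-P, 206, 211 and 216 in HUWE1-WT and 145, 132 and 149 in HUWE1-CS cells. The controls agreed closely, and the HUWE1-CS libraries were all lower.

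**Figure D4:**
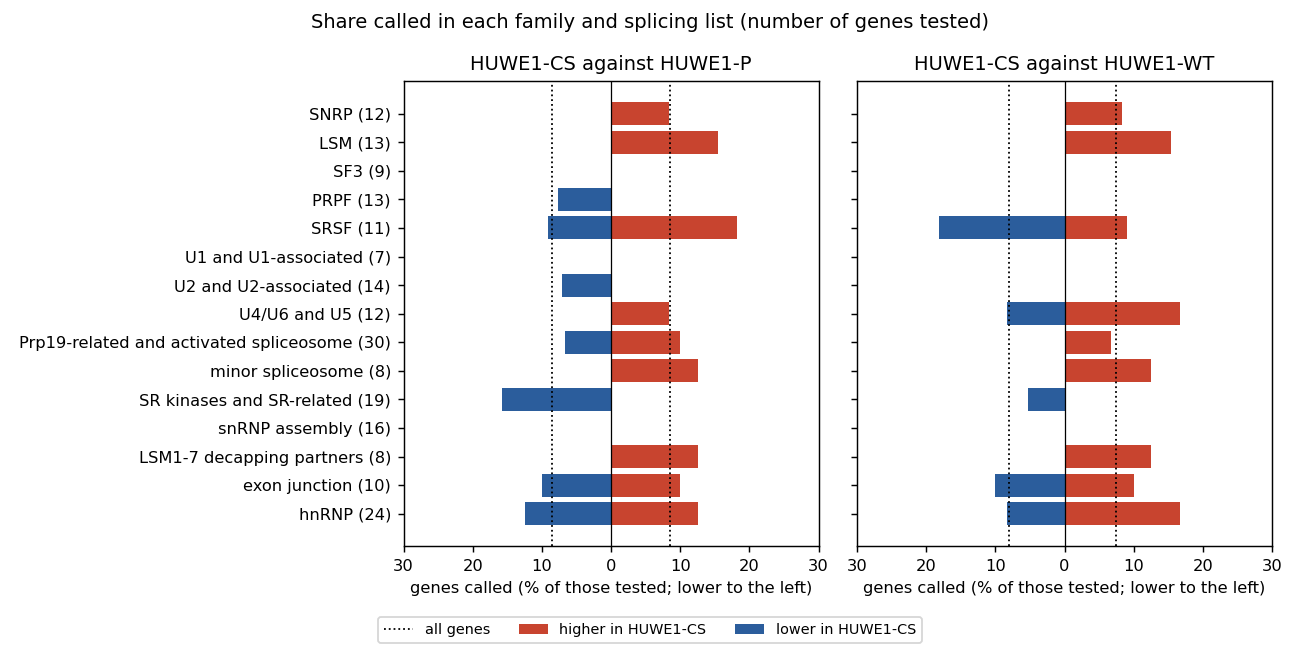
Percentage of genes called (x axis, higher to the right and lower to the left of 0) in each family and splicing list (y axis, number of genes tested in brackets), in HUWE1-CS against HUWE1-P cells (left) and against HUWE1-WT cells (right). Dotted lines are the shares of all genes, 8.46% higher and 8.58% lower on the left. SF3, U1 and snRNP assembly genes show no bar, and hnRNP and SRSF genes have bars on both sides.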

How the data were processed

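Polyadenylated RNA of 9 HCT116 libraries was sequenced with single-end reads. Per the labels and the study's methods, the authors trimmed and mapped reads to hg19 (GRCh37) with STAR 2.5.4, after bcl2fastq 2.20, and deposited unnormalized counts per gene. How reads were counted, with which gene models and strand setting, and how low genes were filtered is not given in the sources used here. The deposited tables of the authors' own edgeR 3.26.8 comparisons (log2 fold change, mean log2 CPM, F, p and false discovery rate) were not used.

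Counts were fitted in R 4.3.3 with edgeR 4.0.16 (TMM, all 11350 genes and 9 libraries, line as the only term, quasi-likelihood F-test with the estimator of earlier edgeR versions, legacy = TRUE). P-values were adjusted by Benjamini-Hochberg over all genes. The biological coefficient of variation was 4.77%. CPM are TMM-normalized, and intervals are 95%. Replicate pairs differed beyond sampling noise, so none was counted as a duplicate. Procedures were tested on simulated counts. No gene was removed, and 147 genes without a symbol were kept.

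Positions and transcript lengths came from GENCODE on GRCh37 (10827 genes), and promoters from RefSeq (GRCh38.p14). Windows of 50 bases were matched exactly to the genome. The members and lists were chosen with earlier results of these data known. Named members were those called in the same direction in both comparisons, the smallest p of each family, and the Sm and LSM1 to LSM8 ring genes. SRSF4, SRSF5, and members named for a count, a low level or repeated sequence were chosen after their values were seen. Of each list at most 2 called genes per direction were named. Alternatives were DESeq2 1.42.0, scaling by RLE or by library totals, a filter that required 10 counts per library, the newer estimator, fits of only the lines compared, the replicate number as a block, trends with GC content or transcript length removed, a limit of 0.05 and the omission of each library in turn. The values of 1 gene of the set are not reported here, although it was kept in all counts.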

Additional observations from a re-analysis of the deposited data

How the results depend on the processing

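LSM4 and SRSF8 kept their direction and call in both comparisons under all 21 alternatives, and SRSF1 did so against HUWE1-P. SNRPD2 lost its call only when a length trend was removed, with the longest transcript (0.14 against HUWE1-P, 0.18 against HUWE1-WT) or the canonical one (0.08 and 0.13), the latter setting added after the data were seen. Members called numbered 4 with DESeq2, 12 with a GC trend removed (with the replicate block, or without it as a setting added after the data were seen) and 13 at a limit of 0.05 against HUWE1-P, in place of 7, as the share of all genes called went from 17.0% to 9.59%, 19.3% or 18.5%, and 26.4%. The 33 SF3, PRPF and SRSF genes gave 2, 8, 8 and 9 calls in place of 4, and a median of 0.025 with the GC trend alone. Against HUWE1-WT the counts were 3 with DESeq2, 10 with either length trend and 13 at 0.05, in place of 6, with 8.79%, 16.9% or 17.0%, and 24.4% of all genes called in place of 15.5%. The 33 genes gave 1 with DESeq2, 5 with total counts or the GC trend alone, 6 with the block and GC or with either length trend, and 8 at 0.05, in place of 3, and the small core 5 at 0.05. The replicate block alone gave 8 (PRPF8 added) and 7 (SF3A3 added). No pairing by number was seen, as 0 of 9 correlations of same-numbered libraries were over 0.1 (-0.020 to 0.058) and 2 of 9 libraries correlated best with their own number. Counting noise can hide pairing in such correlations, so it is not excluded. With the block alone 17.8% of all genes were called against HUWE1-P and 16.2% against HUWE1-WT, in place of 17.0% and 15.5%. Omitting 1 library gave 5 to 8 and 3 to 6 calls over all members, 2 to 3 and 2 to 4 in the small core, and 2 to 5 and 1 to 3 in the others, against HUWE1-P and HUWE1-WT, and 0 between the controls. Medians then ranged from 0.00 to 0.03 and -0.02 to 0.07 over all members, -0.00 to 0.07 and 0.03 to 0.13 in the small core, and -0.017 to 0.029 and -0.056 to 0.020 in the others (-0.056 without HUWE1-WT replicate 1). The fewest calls against HUWE1-WT (3) came without HUWE1-CS replicate 3. In the 33 genes 2 were called against HUWE1-P without HUWE1-P replicate 1, and 1 against HUWE1-WT without HUWE1-WT replicate 3 or HUWE1-CS replicate 2 or 3.

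Ring genes near 0, never called in these settings, changed sign, and the cause was not tested. Against HUWE1-P LSM5 was at 0.039 and 0.037 with the GC trend removed with and without the block, LSM6 at -0.0068, LSM7 at -0.12, SNRPD1 at 0.016 and SNRPF at -0.13 without the length trend, LSM7 at -0.12, SNRPD1 at 0.023 and SNRPF at -0.20 with canonical lengths, SNRPD1 at 0.012 and 0.0098 with the same GC settings, and LSM8 at -0.015 with total counts and -0.00018 with the block. Against HUWE1-WT SNRPD1 was at -0.011 and SNRPF at -0.015 with total counts, SNRPF at -0.17 and SNRPG at -0.11 without the length trend, and SNRPF at -0.24 and SNRPG at -0.19 with canonical lengths. Omitting 1 library, LSM2 ranged from -0.11 to 0.095, LSM5 from -0.14 to 0.086, LSM6 from -0.019 to 0.11, LSM8 from -0.12 to 0.11, SNRPD1 from -0.12 to 0.070 and SNRPE from -0.13 to 0.039 against HUWE1-P, and LSM2 from -0.22 to 0.022, LSM6 from -0.010 to 0.17, LSM8 from -0.024 to 0.21, SNRPD1 from -0.071 to 0.12, SNRPF from -0.12 to 0.15 and SNRPG from -0.073 to 0.091 against HUWE1-WT.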
